A study of Mus musculus with 18 samples.

Results

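The 3 Id3-knockout libraries and the 3 wild-type libraries of set 5 were compared across all 12547 genes of the deposited expression table. They are 6 of the 18 libraries of the series and were chosen by their labels alone. All were made from polyadenylated RNA of mouse CD4 T cells, taken as naive cells and stimulated through CD3 and CD28 with antibody-coated microbeads. Every culture was kept in serum-containing IMDM with IL2, IL12 and anti-IL4, a mixture that favours Th1 cells. The groups differed in genotype, KO (Id3 knockout) or WT (wild type), and in a set number of 3, 5 or 6 whose meaning the labels do not give. In the authors' deposited table the contrast name of set 5 carries the number 96 and that of set 3 the number 24, with no unit. The labels give neither the strain, the age of the mice nor the design of the knockout allele, and do not say whether the 3 libraries of a group came from different mice. The p-values therefore measure the spread between these samples.

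Id3 is a small helix-loop-helix protein without a DNA-binding region. It pairs with E proteins such as E2A (Tcf3), HEB (Tcf12) and E2-2 (Tcf4) and keeps them off the E-box sequences in their target genes. In T cells the balance of Id and E proteins is known for its part in development, in the choice between helper cell fates and in the upkeep of long-lived cells.

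The values were log2 levels, with the same distribution forced on the libraries of a group. After sorting, 98.0% of the values were equal to within 1e-06 among the KO libraries and 97.1% among the WT libraries, so the sequencing depth of a library is unknown. The library median was 9.57 in KO and 9.18 in WT, and 75% of genes had a higher mean in KO. The shift was 0.71 at the 5th percentile of levels, 0.39 at the median and 0.34 at the 99th. Each comparison was therefore read on 2 scales, as deposited and after subtracting each library's median. A gene is said to have risen or fallen below only when limma's moderated test, with Benjamini-Hochberg adjustment over all genes and an adjusted p under 0.05, gave the same direction on both scales. Differences are KO minus WT in log2 units as deposited, with the standard error (SE) of the fit, and subtracting 0.39 gives the centred value.

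As deposited, 7299 genes (58.2%) passed the test, 6285 (50.1%) higher in KO and 1014 (8.08%) lower. After centring 6218 (49.6%) passed, 3120 (24.9%) higher and 3098 (24.7%) lower. On both scales 4134 genes (32.9%) passed, 3120 (24.9%) that rose and 1014 (8.08%) that fell, and these shares are the background for every list below. Centred differences reached 2 or more in 286 risen genes and in 141 that were lower after centring. On the deposited values, the first principal component of the 6 libraries held 67.7% of the variance and separated the genotypes. KO libraries lay between 38.3 and 64.3 and WT libraries between -59.3 and -49.8. The shift of levels between the genotypes is part of this component, which was not computed after centring. In bulk RNA, fewer cells of a type and less RNA per cell cannot be told apart.

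**Figure D1:**
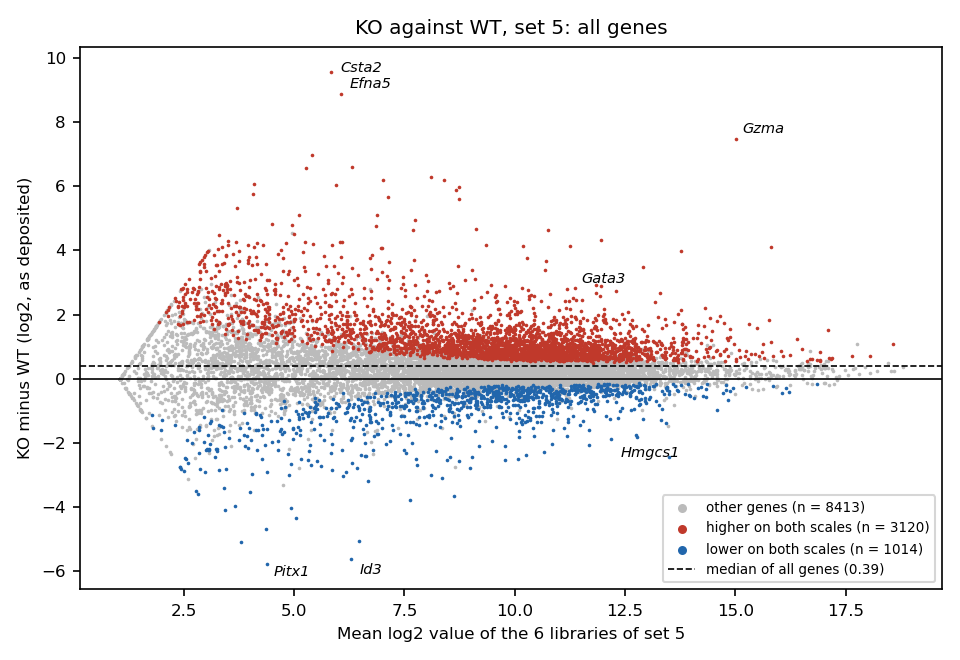
Each point is 1 of 12547 genes, with the mean log2 value of the 6 libraries of set 5 on the x axis and the KO minus WT difference on the y axis. Red and blue points are the 3120 genes higher and the 1014 lower on both scales, and the dashed line is the median of all genes, 0.39, which lies above the solid line at 0.

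Id3 itself stood at 2.02, 5.63 and 2.80 in the KO libraries and at 9.53, 8.92 and 8.85 in the WT libraries. The groups did not overlap, which held as deposited for 54.3% of all genes with KO higher and for 9.69% with KO lower, and KO replicate 2 had the highest level of the 3 KO libraries. The difference was -5.62 (SE 0.89, limma adjusted p = 4.99e-05). Of the 6 measured Id and E protein genes, 2 rose and Id3 fell. Id2, the related inhibitor of E proteins, was 15.51, 15.43 and 15.65 in KO against 14.12, 14.21 and 14.34 in WT, a rise of 1.31 (SE 0.16). Tcf4 rose by 1.87 (SE 0.33). Tcf3 and Tcf12 were 0.48 and 0.52 higher as deposited, and 0.09 and 0.13 after centring, where neither passed the test.

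The largest rises joined secreted factors, receptors and proteases. Gzma, the gene of the killer protease granzyme A, was 19.18, 18.15 and 18.91 in KO and 9.72, 12.19 and 11.94 in WT, a difference of 7.46 (SE 0.55, limma adjusted p = 3.39e-08). It made up 0.630 to 1.28% of the summed linear values of the KO libraries and 0.00240 to 0.0132% of those of WT. Efna5, an ephrin ligand, was 10.75, 9.74 and 10.95 in KO and 1.10, 2.02 and 1.75 in WT, with a difference of 8.86 (SE 0.41) that rests in part on the lowest value of 1 WT library. In both genes every WT library lay far below every KO library.

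Il21, a cytokine that acts on B cells and T cells, was 12.61, 11.11 and 11.47 in KO and 5.39, 6.15 and 5.68 in WT (difference 5.99, SE 0.44). Epas1, the hypoxia-inducible factor HIF-2 alpha, was 11.83, 11.29 and 11.71 in KO and 5.71, 5.63 and 5.80 in WT (5.89, SE 0.45). Il1r2, the decoy receptor of IL1, was 10.90, 8.86 and 9.07 in KO and 2.11, 4.51 and 2.39 in WT (6.60, SE 0.64). In all 3 genes the lowest KO library lay above the highest WT library by more than 4 units. Tnfrsf8 (CD30) rose by 6.18 (SE 0.59), Penk, which encodes enkephalin precursor, by 6.55 (SE 0.36), Tspan9 by 6.29 and Serpinf1 by 6.21. Gpx8, Gask1a, Fam240a and Cstdc4 completed the list with rises from 5.65 to 6.99, of which all but that of Fam240a rest on the lowest value in 1 or 2 WT libraries.

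Csta2 and Sval1 were at the lowest value throughout WT, so only their KO levels are given. Csta2, a stefin that inhibits cysteine proteases, reached 12.23, 9.85 and 9.80, and Sval1 reached 9.79, 5.60 and 5.99. Of 6 genes of the stefin A group 4 rose. Csta3 (7.23, 5.27 and 6.59 in KO) and Stfa3 (6.69, 3.82 and 4.23) were also at the lowest value in every WT library, as was Stfa2, which reached 5.59, 3.42 and 1.09 in KO and did not pass after centring (limma adjusted p = 0.055). These genes are near copies of each other, so reads may have been split among them, while the more distant Cstb differed by 0.22 as deposited and -0.17 after centring.

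Among the 15 largest falls were enzymes of lipid and amino acid metabolism and surface proteins. Scd1, which puts the double bond into fatty acids, was 6.58, 7.87 and 5.94 in KO and 10.80, 9.99 and 10.58 in WT (difference -3.66, SE 0.55, limma adjusted p = 3.13e-05). Acsl6, an acyl-CoA synthetase, was 3.13, 3.08 and 2.40 against 7.43, 7.15 and 7.07 (-4.35, SE 0.31). Btla, an inhibitory receptor, was 6.87, 6.96 and 5.99 against 9.88, 9.12 and 9.84 (-3.0, SE 0.28). No KO library reached the lowest WT library in any of them. Pitx1, a homeobox factor, fell by 5.79 (SE 0.37) and Gldc, the glycine-cleaving decarboxylase, by 5.09 (SE 0.51), both with KO libraries at the lowest value. Ubd, a ubiquitin-like protein, fell by 5.06 (SE 0.68) and Tnfsf4 (OX40 ligand) by 2.85 (SE 0.50). The remaining falls, of Dapl1, Pygl, Setbp1, Ggt1, Serpinb1a, Dock4, Sema3b and Ccr10, lay between -4.69 and -2.90. Ccr10 fell together with the neighbouring Plekhh3 and Cntnap1, and reads of such close neighbours may not be assigned with certainty.

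**Figure D2:**
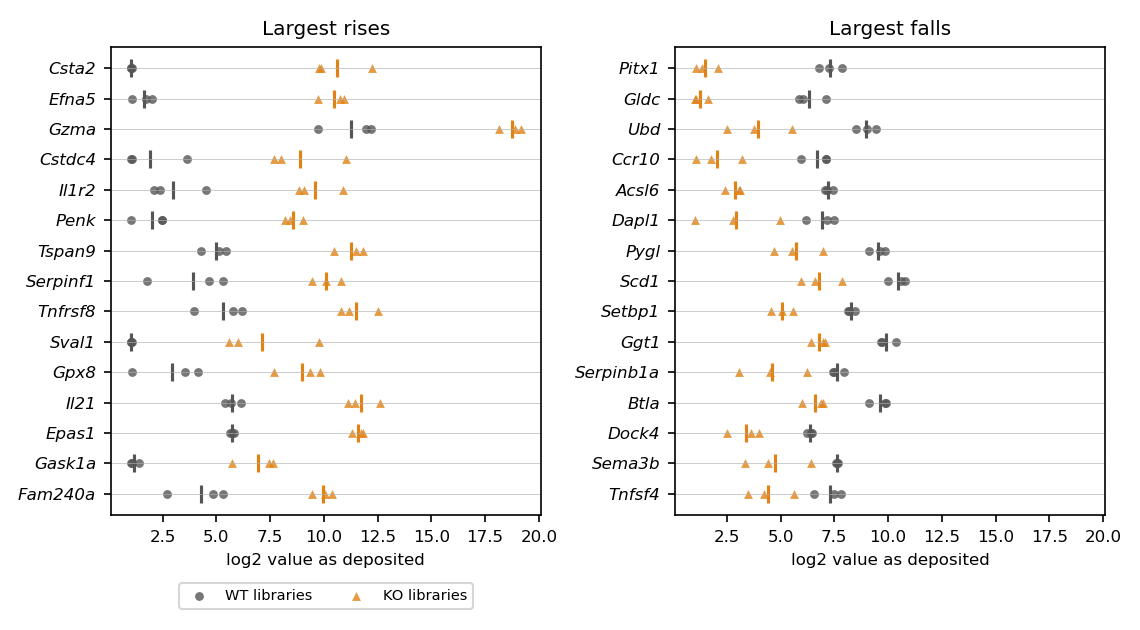
Points are the log2 values of single libraries (circles WT, triangles KO) and bars the group means for the 15 largest rises and the 15 largest falls of set 5. The groups do not overlap in any of the 30 genes, which the choice of genes required; Gzma reaches 19.18 in KO, and Csta2 and Sval1 lie at the lowest value throughout WT.

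Genes of the Th2 programme, the IL4 and IL13 arm of helper cells, were mostly higher in KO. Of 26 measured members 21 rose and 1 fell, with a median difference of 2.41 against 0.39 over all genes. Gata3, the lead factor of Th2 cells, was 12.81, 12.43 and 12.50 in KO and 9.99, 10.08 and 10.09 in WT (2.52, SE 0.11, limma adjusted p = 1.2e-09). Il4 was 11.23, 10.54 and 10.70 against 8.99, 8.79 and 8.69 (2.0, SE 0.46). Il13 rose by 3.20 (SE 0.37), Il10 by 2.57 (SE 0.47), Il24 by 4.34 (SE 0.36) and Maf, a factor that drives Il4 and Il10, by 3.67 (SE 0.39). Il4ra, the receptor of IL4, rose by 1.92 (SE 0.17), while Stat6, which carries its signal, differed by 0.25 as deposited and -0.14 after centring. Cd200r1 fell by 0.76 (SE 0.30), a call that was lost without KO replicate 2, WT replicate 1 or WT replicate 3.

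The Th1 programme had members in both directions, as did all genes, of which 24.9% rose and 8.08% fell. Of its 26 members 8 rose and 4 fell, and 5 rose without WT replicate 1. Its median was 0.36 as deposited, against 0.39 over all genes. It was -0.03 after centring and -0.01 after quantile normalization, so it changed sign with the scale. Ifng was 14.54, 14.53 and 15.59 in KO and 13.84, 13.86 and 13.80 in WT, 1.05 higher as deposited (adjusted p = 0.0089) and 0.66 after centring (adjusted p = 0.092, both limma). Tbx21, the lead factor of Th1 cells, differed by 0.36 as deposited and -0.03 centred. Both chains of the IL18 receptor fell. Il18r1 was 9.94, 11.18 and 10.82 in KO and 12.68, 12.54 and 12.93 in WT (-2.07, SE 0.34), and Il18rap fell by 1.07 (SE 0.28). Irf1, which was 15.50, 15.46 and 15.90 against 13.55, 13.80 and 13.63, rose by 1.96 (SE 0.14). Il12rb1, a chain of the IL12 receptor, rose by 1.80 (SE 0.12), whereas its partner Il12rb2 differed by -0.34 as deposited (adjusted p = 0.31) and -0.72 after centring (adjusted p = 0.038, both limma).

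Among 27 cytokine genes of T cells 12 rose and 1 fell (2 when KO replicate 1 or KO replicate 2 was left out). Csf1, the growth factor of macrophages, was 9.80, 10.22 and 10.02 against 7.24, 7.59 and 7.21 (2.66, SE 0.20), and Ebi3, a subunit of IL27 and IL35, rose by 2.97 (SE 0.41). Osm fell by 1.04 (SE 0.23), and Tnf overlapped between the groups, with a difference of 0.03 as deposited (adjusted p = 0.86) and -0.36 after centring (adjusted p = 0.045, both limma).

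Of 32 lineage transcription factors of helper cells 20 rose and 3 fell. Besides those above, Ikzf3 rose by 2.82 (SE 0.24), Ikzf4 by 2.12 (SE 0.17), Runx1 by 1.54 (SE 0.15) and Prdm1 (Blimp-1) by 1.55 (SE 0.31). Bcl6, the follicular helper factor that Prdm1 opposes, was 3.58, 4.67 and 3.61 in KO and 5.61, 5.53 and 5.70 in WT, a fall of 1.66 (SE 0.38). Tox fell by 1.6 (SE 0.32), and Stat4, the transducer of IL12, by 0.36 (SE 0.13). Stat4 was past the test only narrowly (limma adjusted p = 0.027). It was not when KO replicate 1, KO replicate 3, WT replicate 1 or WT replicate 3 was left out (limma adjusted p = 0.055 to 0.146). Among 18 BATF, IRF and AP-1 factors 11 rose and 1 fell. Batf was 13.73, 13.08 and 13.37 against 10.32, 10.57 and 10.59 (2.90, SE 0.17) and Irf4 12.35, 12.37 and 12.27 against 10.35, 10.20 and 9.90 (2.18, SE 0.10), the pair that opens chromatin together after T cell receptor signals. Irf8 fell by 0.87 (SE 0.17). Of 14 factors linked to naive and stem-like cells 7 rose, among them Myb by 2.75 (SE 0.32), Satb1 by 1.31 and Bach2 by 0.89, and 2 fell, or 1 when KO replicate 1, KO replicate 2 or WT replicate 3 was left out. They were Id3 itself, a member of the list, and Lef1, at -0.34.

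The NF-kB genes rose almost throughout. Of 28 subunits, inhibitors and feedback targets 25 rose and none fell (limma; 27 higher and none lower as deposited), with a median of 1.11 against 0.39 for all genes. The subunits Rel, Rela, Relb, Nfkb1 and Nfkb2 rose by 0.77 to 1.45. Nfkbia, the inhibitor that NF-kB itself induces, was 15.63, 15.44 and 15.79 in KO and 13.84, 13.86 and 13.91 in WT (1.75, SE 0.13, limma adjusted p = 2.8e-08). Tnfaip3 (A20), an enzyme that shuts the pathway down, was 14.82, 14.28 and 14.78 against 11.92, 11.99 and 11.96 (2.67, SE 0.17). Activators and inhibitors of the pathway thus both rose. Nfkbiz, Nfkbid and Ikbkb did not pass on both scales, with differences of 0.64, 0.45 and 0.44, and the Bcl2a1 genes are near copies whose reads may be shared. The 250 bases before the start of Nfkbia (RefSeq, GRCm38.p6, chr12:55492648-55492897, minus strand) are shown because they hold an NF-kB type motif, GGGA and TTCC with 2 bases of any kind between them, searched on both strands; the capitals mark the match on the opposite strand, 29 to 20 bases before the start. Of 23 NF-kB genes with a promoter window 2 (8.7%) held it, against 1.73% of 9978 measured genes.
Nfkbia: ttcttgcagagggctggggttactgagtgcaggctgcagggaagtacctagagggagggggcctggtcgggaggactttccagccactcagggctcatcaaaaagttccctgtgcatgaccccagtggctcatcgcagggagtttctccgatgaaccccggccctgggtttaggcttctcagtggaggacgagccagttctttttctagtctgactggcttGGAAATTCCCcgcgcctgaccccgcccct

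Of 23 early response and feedback genes of the T cell receptor 10 rose and 1 fell. The phosphatases of MAP kinases were foremost, with Dusp10 at 12.38, 11.99 and 12.76 in KO and 8.96, 9.07 and 8.91 in WT (3.39, SE 0.18), Dusp4 up by 2.43, Dusp2 by 2.09 and Dusp5 by 1.86. Spry1, a brake on receptor kinase signals, fell by 2.31 (SE 0.26). Among the immediate early genes Nr4a2 rose by 1.35 (SE 0.33), while Nr4a1, Nr4a3, Egr2 and Egr3 differed by -0.10, 0.04, 0.40 and 0.21 and did not pass the test. Egr1 was 0.83 higher as deposited (adjusted p = 0.010) and 0.44 after centring (adjusted p = 0.16, both limma). Of 25 genes of the receptor complex and its first steps 13 rose, led by Prkcq at 1.43 (SE 0.11) and Plcg1 at 1.06, and Ptpn6 (SHP-1) fell by 0.76 (SE 0.14). Cd3d, Cd3e and Cd3g differed by 0.34 to 0.44 as deposited and by -0.05 to 0.05 after centring.

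Receptors for other cells' signals went both ways. Of 27 inhibitory and costimulatory receptors 9 rose and 4 fell, and the falls numbered 2 when KO replicate 2, WT replicate 1 or WT replicate 3 was left out. Tigit rose by 3.10 (SE 0.40), Havcr2 (TIM-3) by 2.82 (SE 0.41), Ctla4 by 2.0 (SE 0.24) and Lag3 by 1.83 (SE 0.31). Pdcd1 (PD-1) was 7.27, 7.02 and 7.15 in KO and 6.53, 7.03 and 7.29 in WT, with overlapping groups and a difference of 0.20 (adjusted p = 0.48). Of 19 TNF superfamily receptors 9 rose, including Tnfrsf4 (OX40) by 0.97 and Tnfrsf18 (GITR) by 0.92, and none fell (limma; 11 higher and none lower as deposited, and 4 lower after centring). Of 13 TNF superfamily ligands 2 rose and 3 fell. Cd40lg, the helper signal to B cells, was 8.16, 8.61 and 8.10 against 10.09, 9.66 and 10.01 (-1.63, SE 0.17), and Tnfsf11 (RANKL) fell by 1.35. Among 34 cytokine receptors 14 rose and 3 fell, among them Ifngr2, a chain of the interferon gamma receptor, which was 8.37, 9.19 and 8.41 against 4.58, 6.37 and 5.02 (3.33, SE 0.41). Of 21 receptors of chemokines and related attractants 9 rose, among them Ccr8 by 2.57 and Ccr2 by 2.81, and 3 fell, Ccr10, Ccr6 and S1pr4. The fall of S1pr4, by 0.36, was lost when any library but KO replicate 2 was left out.

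Of 22 cytotoxic genes 11 rose and none fell (limma; 13 higher and none lower as deposited, 2 lower after centring), with a median of 1.36. Cst7, a protease inhibitor of killer cells, was 13.96, 13.36 and 13.70 in KO and 10.72, 11.0 and 11.08 in WT (2.74, SE 0.16), and Prf1 (perforin) rose by 1.29 (SE 0.30). Gzmb, at 17.18, 17.58 and 17.37 against 17.02, 17.46 and 17.44, overlapped between the groups and differed by 0.07 (adjusted p = 0.84). Gzmc, Gzmd, Gzmf and Gzmg rose by 2.16 to 3.88, but they are near copies and Gzmd, Gzmf and Gzmg were at the lowest value in 1 or 2 WT libraries.

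Genes of antigen presentation rose in both classes. Of 14 class I genes 10 rose, with H2-K1 at 17.83, 17.77 and 17.98 against 16.11, 16.39 and 16.50 (1.52, SE 0.13) and Nlrc5, the class I transactivator, up by 1.26. Of 9 class II genes 7 rose, with a median of 2.43. Cd74, the invariant chain, was 10.54, 10.86 and 10.80 against 7.42, 8.40 and 8.25 (2.71, SE 0.37) and H2-DMa, which edits the peptides that class II proteins carry, rose by 2.43 (SE 0.19). H2-Ab1 was 10.10, 10.44 and 9.13 against 10.45, 10.37 and 10.51 and overlapped (-0.56, adjusted p = 0.32). Markers of macrophages moved the same way. Of 7 measured, 4 rose (2 without KO replicate 1), their summed level was 11.6 to 12.3 in KO and 8.88 to 9.77 in WT on the log2 scale, and Lyz2 was at the lowest value throughout WT and in KO replicates 2 and 3. Of 7 dendritic cell markers 3 rose, 2 of them class II genes (1 rose without KO replicate 3 or without WT replicate 1), with sums of 10.0 to 10.8 in KO and 10.5 to 10.6 in WT that rest mostly on H2-Ab1, and Itgax and Ccl22 at the lowest value throughout WT. Their part in the class II result was not tested.

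The most uniform fall was that of cholesterol synthesis. Of 20 enzymes 19 fell, 19 in every fit that left out 1 library, and none rose (limma; none higher on either scale), with a median of -0.96 as deposited, -1.35 centred and -1.34 after quantile normalization. Hmgcs1, which makes HMG-CoA, was 11.10, 11.62 and 11.02 in KO and 13.24, 13.02 and 13.12 in WT (-1.88, SE 0.16, limma adjusted p = 1.2e-07). Idi1, the isomerase of the pathway, was 11.32, 11.83 and 11.49 against 12.99, 12.70 and 12.67 (-1.24, SE 0.12). Sqle, Lss, Cyp51, Fdps and Pmvk, enzymes of other steps, fell by 1.23 to 1.34. Ebp alone missed the test, at 0.09. Of 17 genes of sterol control, uptake and efflux 4 rose and 3 fell (7 lower after centring). Insig2, which holds the pathway's transcription factors in the endoplasmic reticulum, fell by 0.57 (SE 0.20), Lpcat3 by 0.64 and Stard4 by 0.75. Srebf2, the transcription factor of the pathway, differed by 0.05 as deposited and -0.34 after centring, and Insig1 by 0.25 and -0.14. The cholesterol exporters and carriers Abca1, Npc1 and Npc2 rose by 1.44, 1.02 and 1.67.

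Promoters of 15 of the cholesterol genes had a window of 250 bases before to 50 after the start (RefSeq, GRCm38.p6). CCAAT, the letters of the NF-Y site, was found on either strand in 14 of them (93.3%), against 43.2% of 9978 measured genes with a window. Among 814 genes that fell the share was 44.6%. It was 78.6% of 28 mitosis genes, 40.0% of 25 proteasome genes and 26.1% of 23 NF-kB genes. TCACCCCAC, a sterol response element, was found in 1 of the 15 cholesterol genes (6.67%), that of Hmgcs1, against 0.641% of measured genes. The 250 bases before the starts of Hmgcs1 (chr13:119690101-119690350, plus strand) and Idi1 (chr13:8885356-8885605, plus strand) are shown because these genes fell with the smallest adjusted p of the list. Capitals mark ATTGG, which is CCAAT on the other strand, and TCACCCCAC. Hmgcs1 has CCAAT from 237, 176 and 45 bases before the start and TCACCCCAC from 137, and Idi1 has CCAAT from 45 and 14. A match of letters is a description and says nothing of binding.
Hmgcs1: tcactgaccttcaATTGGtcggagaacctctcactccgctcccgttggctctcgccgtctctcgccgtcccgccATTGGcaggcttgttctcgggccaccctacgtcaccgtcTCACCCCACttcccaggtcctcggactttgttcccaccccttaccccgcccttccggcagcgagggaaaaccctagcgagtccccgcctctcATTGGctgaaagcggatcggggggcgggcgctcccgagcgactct
Idi1: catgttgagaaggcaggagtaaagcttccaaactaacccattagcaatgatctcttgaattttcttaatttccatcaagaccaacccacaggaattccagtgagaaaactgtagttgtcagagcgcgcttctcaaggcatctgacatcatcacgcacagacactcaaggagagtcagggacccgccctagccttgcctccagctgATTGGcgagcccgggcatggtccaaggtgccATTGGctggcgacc

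Fatty acid synthesis fell with it. Of 19 genes 12 fell and none rose (limma; 2 higher as deposited). Scd2 was 12.60, 13.31 and 12.28 against 14.16, 14.02 and 14.18 (-1.39, SE 0.25), Fads2, a desaturase of polyunsaturated chains, fell by 1.52 (SE 0.29) and Fasn by 0.58 (SE 0.13). In cholesterol synthesis as in fatty acid synthesis, KO replicate 2 was the KO library closest to WT for Hmgcs1, Idi1, Scd1, Scd2 and Fads2. Over all genes it was also the KO library nearest WT on the first principal component, at 38.3 against 64.3 and 58.6. The same library had the highest Id3 value of the KO libraries. The order was noticed in the values and its bearing on the results was not tested.

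Of 18 targets of hypoxia-inducible factors 8 fell and none rose (limma; none higher on either scale), although Epas1 and Hif1a rose, the latter by 1.56 (SE 0.18). Without KO replicate 3 the fallen targets numbered 4. Vegfa, the vessel growth factor, was 9.37, 9.84 and 9.43 against 10.38, 10.22 and 10.46 (-0.81, SE 0.12) and Ndrg1 10.30, 11.15 and 9.46 against 12.02, 11.89 and 12.34 (-1.78, SE 0.45). Of 22 genes of glycolysis and lactate handling 4 fell, among them Ldha by 0.44 and the glucose transporter Slc2a3 by 1.02, and 1 rose, Eno2, by 3.11 (SE 0.29).

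Several large lists had medians near or below 0 as deposited, and how many of their genes were lower depended on the scale. Among 31 proteasome subunits 13 were lower as deposited and 31 after centring, and 5 to 14 fell on both scales when 1 library was left out, the fewest without WT replicate 1, and 7 with KO replicate 1 or KO replicate 3 left out. Among 43 mitochondrial ribosomal proteins 12 fell on both scales (7 without WT replicate 1) and 38 were lower after centring. Of 37 nuclear genes of respiratory complex I 12 fell (6 without KO replicate 3, 5 without WT replicate 1), and 31 were lower after centring. Of 35 mitosis genes 4 fell, and 23 were lower after centring, with a median of -0.16 as deposited and -0.55 centred; the falls numbered 10 with KO replicate 2 left out, 1 with KO replicate 3 left out and 2 with KO replicate 1, WT replicate 1 or WT replicate 2 left out. Mki67, the marker of cycling cells, was 12.84, 13.23 and 12.88 in KO and 12.91, 12.86 and 12.81 in WT, with overlapping groups.

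**Figure D3:**
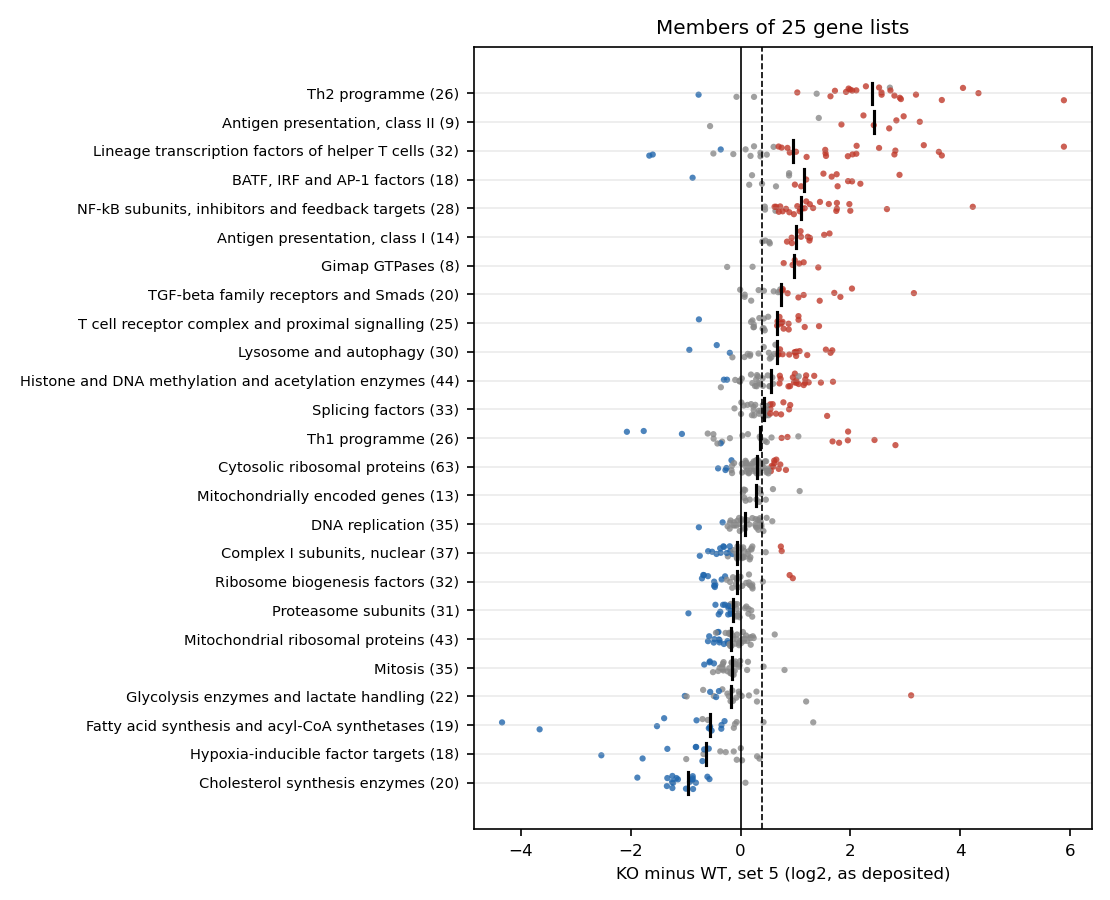
Each point is a gene of 1 of 25 lists, placed by its KO minus WT difference in set 5 (log2, as deposited), red if higher and blue if lower on both scales, and thick bars are list medians. The solid line is 0 and the dashed line the median of all genes, 0.39; the Th2 median lies at 2.41, the NF-kB median at 1.11 and the cholesterol median at -0.96.

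Markers of other cells were low or absent for most types. The CD4 T cell markers, 9 measured of 12, summed to 17.0 to 17.1 in KO and 16.5 to 16.6 in WT on the log2 scale, and none was at the lowest value. The CD8 markers summed to 8.62 to 9.05 and 7.78 to 8.58. Of 9 NK cell markers 1 rose, Klra8 (none without KO replicate 3, WT replicate 1 or WT replicate 3), with sums of 7.30 to 8.12 and 6.06 to 6.90 and Ncr1 at the lowest value in all 6 libraries. None of 9 B cell markers passed the test on both scales (limma; 1 higher as deposited), and their sum was 11.0 to 11.3 in KO and 10.3 to 10.5 in WT. Of 10 granulocyte and mast cell markers, Fcer1a, Mcpt1, Prg2, Tpsb2 and Mcpt4 were at the lowest value in all 6 libraries, and the sums were 7.65 to 9.11 in KO and 7.76 to 8.23 in WT. Of 4 stromal, epithelial and endothelial markers 3 rose, Krt18, Epcam and Pecam1, and Kdr fell, a fall lost in 4 of the 6 fits that left out 1 library, with sums of 11.1 to 11.6 in KO and 9.62 to 9.67 in WT that rest mostly on Pecam1, at 11.46, 10.99 and 11.15 against 9.53, 9.53 and 9.57. Of 8 erythroid markers Car2 rose by 1.85 (not without KO replicate 1 or WT replicate 2) and the globin gene Hbb-bt fell by 1.53. The fall of Hbb-bt was lost when any library but WT replicate 3 was left out. The erythroid sums were 6.18 to 7.04 in KO and 6.55 to 6.71 in WT. Of 3 gamma delta and NKT cell markers Zbtb16, the PLZF factor of NKT cells, rose by 3.34 (SE 0.56), with sums of 4.23 to 6.09 in KO and 3.09 to 4.17 in WT. Their part in the results was not tested.

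In gene order (RefSeq, GRCm38), risen genes at times stood side by side. These runs were chosen after their values were seen, as 3 or more neighbours among 12350 ordered genes that moved the same way by at least 1 after centring; 27 runs were higher and 7 lower. Gzma stood beside Gpx8, Cdc20b and Ccno, with differences of 7.46, 6.03, 2.02 and 2.52. Gzmk, on its other side, overlapped between groups (1.43, SE 1.47), and the next gene, Esm1, was 4.95 higher (SE 0.73). Dhx29 and Mtrex, beyond Ccno, differed by 0.43 and 0.22. The longest run, of 5 genes, was Grb7, Ikzf3, Zpbp2, Ormdl3 and Lrrc3c, with differences of 1.84 to 2.82, and it ended at Psmd3 with -0.05. In the IL1 receptor group neighbours went opposite ways. Il1r2 rose by 6.60, Il1r1 and Il1rl1 differed by 0.29 and -0.07, and Il1rl2, Il18r1, Il18rap and Slc9a2 fell by 1.74, 2.07, 1.07 and 2.44.

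**Figure D4:**
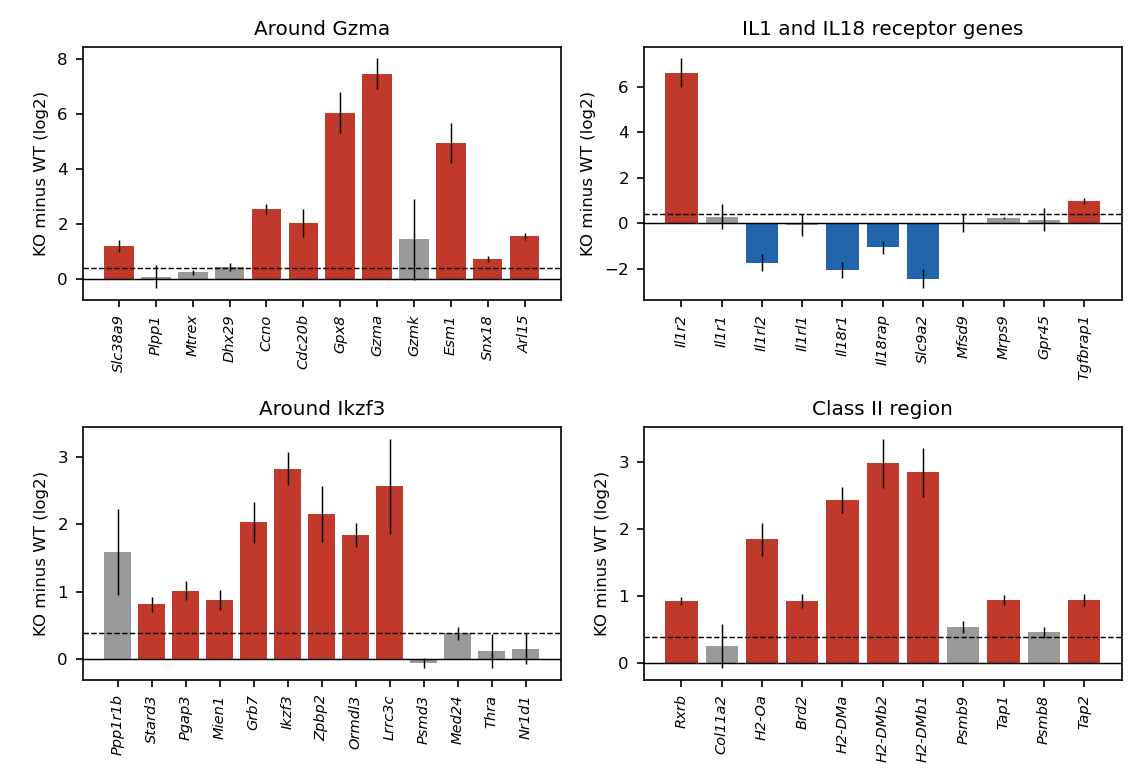
Bars are KO minus WT differences in set 5 (log2, as deposited) with the SE of the fit for measured genes in chromosomal order at 4 places, red if higher, blue if lower on both scales and grey otherwise; the dashed line is the median of all genes. Il1r2 at 6.60 and Slc9a2 at -2.44 mark the opposite directions within the IL1 and IL18 receptor genes.

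The effect in set 5 was next set against the effect in sets 6 and 3, which share no library with it. Against set 6, limma called 0 genes (0.0%) on either scale, while 1320 genes (10.5%) had an unadjusted p under 0.05. The smallest adjusted p was 0.148, for Acsl6, whose difference was -4.35 in set 5 and -1.80 in set 6. The median SE of this difference of effects was 0.20. Of the genes that rose in set 5, 1981 also rose in set 6, which is 63.5% of those of set 5 and 84.2% of those of set 6. Of those that fell, 435 were shared, 42.9% and 75.5%, and 2 genes that fell in set 5 rose in set 6. Among all 12547 genes 2353 rose and 576 fell in set 6. The labels do not say whether sets 5 and 6 came from the same mice.

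Against set 3 the effect differed for 6276 genes (50.0%) as deposited, for 4659 (37.1%) after centring and for 3199 (25.5%) on both scales, 2343 (18.7%) with a higher and 856 (6.82%) with a lower difference in set 5. Of the genes that rose in set 5, 319 rose in set 3 (10.2% of those of set 5 and 36.8% of those of set 3) and 121 fell there. Of those that fell in set 5, 44 fell in set 3 (4.34% of those of set 5 and 10.7% of those of set 3) and 50 rose there. Among all 12547 genes 867 rose and 412 fell in set 3. Mitosis genes gave 30 of 35 with a lower effect in set 5, and their centred median was -0.55 in set 5 and 0.83 in set 3. Cholesterol synthesis gave 16 of 20 with a lower effect in set 5, with centred medians of -1.35 and -0.22. NF-kB genes gave 17 of 28 with a higher effect, as did 13 of 25 genes of T cell receptor signalling. Gata3 differed by 2.52 in set 5 and 0.73 in set 3 (limma adjusted p of the difference 1.1e-06), whereas Il4 differed by 2.0 and 4.71 (0.0025), so 2 Th2 genes differed in opposite ways. Of 26 Th2 genes 5 had a higher and 5 a lower effect in set 5. Granulocyte and mast cell markers gave 9 of 10 with a lower effect in set 5, 5 of the 10 being at the lowest value in all 6 libraries of set 5, and their centred median in set 3 was 4.09. Erythroid markers gave 5 of 8 with a lower effect, with centred medians of -1.13 in set 5 and 2.80 in set 3. None of 9 B cell markers passed the test of this difference on both scales (limma), and their centred medians were 0.49 and 2.53. The part of these cells in the difference between sets was not tested. Id3 was -5.62 and -6.76, with a difference of 1.14 (SE 1.25, adjusted p = 0.473).

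**Figure D5:**
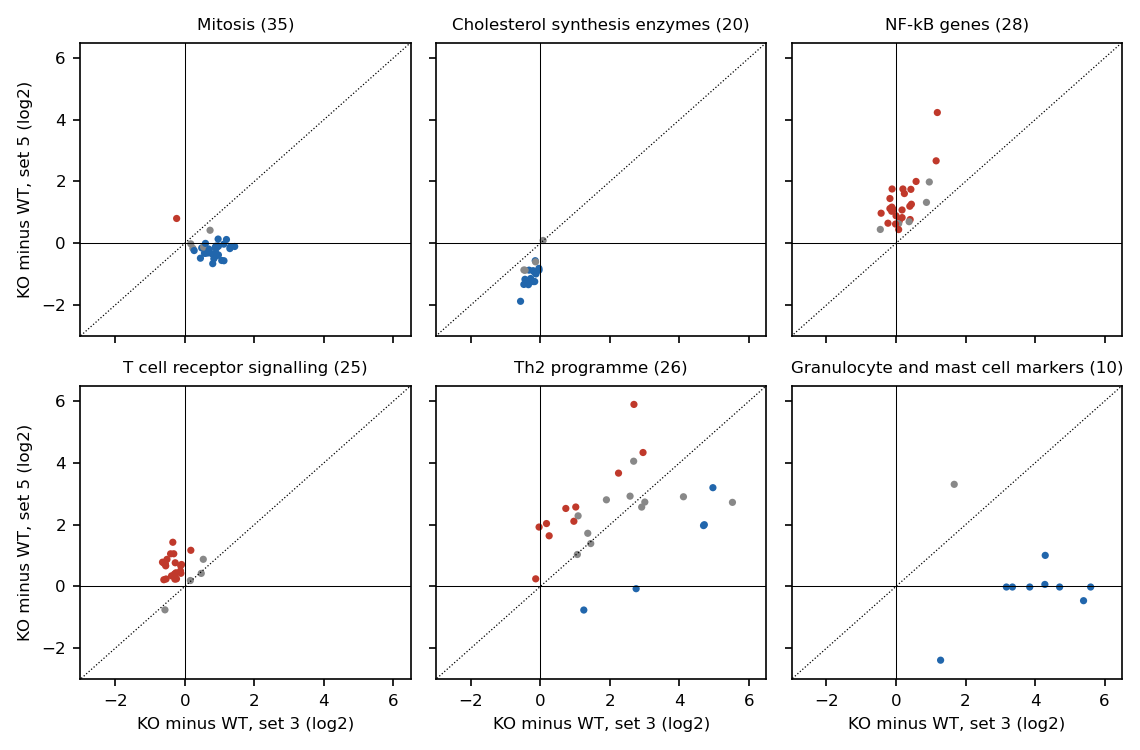
Points are genes of 6 lists, placed by the KO minus WT difference in set 3 (x axis) and set 5 (y axis), both log2 as deposited, and the dotted line marks equal effects. Red and blue points had a higher and a lower effect in set 5 with a limma adjusted p under 0.05 as deposited. All 28 NF-kB genes lie above the line and 19 of 20 cholesterol genes below it. Over all genes the median of set 5 minus set 3 was 0.42 as deposited, with 43.2% called higher and 6.82% lower.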

How the data were processed

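RNA-seq libraries of 18 samples in 6 groups of 3 were analysed, with groups taken from the treatment labels. Stranded libraries were made from polyadenylated RNA, per the labels' protocols. The submitters' processing notes name the GRCm39 assembly and the tools limma, edgeR and Salmon 1.9.0, with no role. Values in the main deposited table are log2 levels, per the file headers. No source used here states their normalization. A second table by the authors holds log2 fold changes, a test score and p-values, per the file headers. By the authors' deposited table, 4741 genes of the set 5 contrast had an adjusted p under 0.05, and 4728 of them were among 4743 calls made here against a minimum fold of 1.2. Equal distributions within groups hide depth and could narrow the spread.

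One linear model with 6 group means was fitted to all libraries with limma 3.58.1 in R 4.3.3, with a variance trend, 12 residual degrees of freedom and Benjamini-Hochberg adjustment over 12547 genes. Contrasts were KO minus WT in set 5 and the difference of that effect from sets 6 and 3. A filter on low values was not needed, as every gene passed it. The fit was tested on simulated data.

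The comparison and the 77 gene lists were chosen with earlier results of these data known, so list counts are descriptions and no list was tested as a set. Named genes are Id3; the 15 largest rises and falls called on both scales without overlap and with a mean of 6 or more in the higher group and a proper symbol; genes at the lowest value in 1 genotype and at 6 or more in the other; the 3 called members of each list with the smallest adjusted p per direction, and others beside a list's count; and the 5 largest differences per direction between sets. Replicate numbers did not pair KO and WT of set 5 (r of equal numbers from -0.04 to 0.03).

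Alternatives were median centring, quantile normalization, other filters, 1 added on the linear scale, variance settings, library weights, larger minimum differences, a replicate block, the compared groups alone and leaving out each library.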

Additional observations from a re-analysis of the deposited data

Results flagged for a closer look

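By limma's test of the difference itself, the effect of the knockout differed between sets 5 and 3 for 6276 genes (50.0%) as deposited. The count was 4659 (37.1%) after centring and 3199 (25.5%) on both scales. Between sets 5 and 6 the effect differed for 0 genes on either scale, where 1320 had an unadjusted p under 0.05 as deposited. The 5 largest differences of effects toward set 5 (log2, set 5 minus set 3) were those of Csta2 (6.47), Sval1 (6.11), Gask1a (5.45), Csta3 (5.34) and Gng4 (5.28). The values of Csta2, Sval1 and Csta3 rest on WT libraries of set 5 that were all at the lowest value and are no measure of size. Gng4, a G protein subunit, was 4.97, 7.22 and 5.91 in KO and 2.12, 1.89 and 2.68 in WT of set 5. The 5 largest in the other direction were those of Ubd (-8.0), Ccr10 (-6.30), Sprr2a2 (-6.23), Serpinb1a (-6.03) and Nupr1 (-6.02). Ubd, Ccr10, Serpinb1a and Nupr1 were lower in KO in set 5 (-5.06, -4.69, -3.02 and -2.24) and had positive differences in set 3 (2.93, 1.62, 3.01 and 3.78). Sprr2a2 was at the lowest value throughout WT of set 5 and in 2 of its KO libraries, and its difference in set 3 was 7.29.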

How the results depend on the processing

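For KO against WT in set 5 (7299 genes), the count fell to 2234 with a log2 difference of 1 or more, to 4743 against a minimum fold of 1.2 and to 3046 with that test after centring. The other planned settings gave 6151 to 7518, and leaving out 1 library 6619 to 7154. The share of calls that were higher was 86.1% as deposited, 50.2% centred (3120 higher, 3098 lower) and 47.9% after quantile normalization (2949 higher, 3202 lower). For set 5 minus set 3 (6276 genes) the count was 2466 with a difference of 1 or more and 2270 against a fold of 1.2 after centring, and 5793 to 6363 with 1 library left out. For set 5 minus set 6 it was 0 to 1 with 1 library left out, the 1 gene without WT replicate 3 of set 5. With the replicate number as a block 7458 genes were called for set 5 and 6541 for set 5 minus set 3; the labels share numbers, but the data did not pair them. Of 287 named results 215 kept direction and call in every setting, and none reversed. Of 154 list counts 48 moved by over 1.5 times when a library was left out, 30 of them counts of 3 or fewer, and 8 moved under the block; these list settings and the quantile counts of lists were added after the data were seen. Depth is unknown, and the lowest values, near 1.0 to 1.1, limit folds of weakly expressed genes.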

Other observations

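Other lists moved in set 5 as well. Of 8 Gimap GTPases, which support lymphocyte survival, 6 rose, with a median of 0.97 against 0.39 over all genes. Of 20 TGF-beta family receptors and Smads 10 rose, including Tgfbr1, at 11.30, 10.96 and 11.61 in KO and 9.47, 9.66 and 9.61 in WT (1.71, SE 0.13). Of 44 enzymes that write or erase methyl and acetyl marks on histones and DNA 19 rose and 2 fell, 1 without KO replicate 1, KO replicate 3, WT replicate 1 or WT replicate 2. Of 30 lysosome and autophagy genes 15 rose and 3 fell, with no more than 1 fall when any library but KO replicate 2 was left out. Of 33 interferon-stimulated genes 12 rose and none fell (limma; 2 lower after quantile normalization). Of 21 histones on the list of replication-dependent histones, near copies that poly(A) selection recovers poorly, 6 fell (3 without KO replicate 3). The list also holds H1f0, a linker histone made outside replication, which rose by 1.06 with all libraries and passed on both scales in 1 of the 6 fits that left out 1 library, that without KO replicate 3.

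The E-box CAGCTG, searched on both strands, stood in a promoter window of 26.1% of 218 genes higher by 2 or more on both scales. Its share was 17.6% among 9978 measured genes with a window. For CACCTG these shares were 26.1% and 21.1%, and for CACGTG they were 7.8% and 11.6%. Among 58 genes with a window that were lower by 2 or more, the shares were 17.2%, 31.0% and 12.1% in the same order. These are descriptions of letters with no test.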
